A study of Mus musculus with 2 samples.

Results

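The CC chemokine ligands other than Ccl2 were examined in dorsal skin of the MC903 mouse model of atopic dermatitis (AD), cell class by cell class. The members were the rows of both count matrices whose symbol is Ccl3, Ccl4, Ccl6, Ccl7, Ccl8, Ccl9, Ccl11, Ccl12, Ccl19 or Ccl24, which gave 10 of 33904 genes. All 10 were found in both libraries and all had UMIs (unique molecular identifiers, each standing for 1 captured transcript) in each of them. Both libraries came from female C57BL/6J mice, 7 weeks old, whose back had been depilated 24 h before the first application. In the AD library, MC903 (calcipotriol, a vitamin D analogue that provokes AD-like dermatitis) dissolved in ethanol was put on an area of 2 cm by 2 cm every day at 4.5 nmol per application, and skin was taken on day 10. The Ctrl library came from mice that received ethanol alone on the same area over the same days. Each group is 1 library, the sources used here do not give the number of mice pooled into it, and the treatment, the animals and the library therefore cannot be told apart. No test between Ctrl and AD was possible, no p-value is given, and the 95% intervals in parentheses stand for counting error alone.

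CC chemokines are small secreted proteins that draw leukocytes along gradients by acting on membrane receptors named CCR. They take their name from a pair of neighbouring cysteines near the start of the mature protein. CCL7 and CCL12 act on CCR2 of monocytes, mouse CCL8 on CCR8 of T helper cells, the eotaxins CCL11 and CCL24 on CCR3 of eosinophils, CCL19 on CCR7 of naive T cells and mature dendritic cells, and CCL3, CCL4, CCL6 and CCL9 on receptors such as CCR1 of monocytes, granulocytes and T cells. In skin, dermal fibroblasts (dFBs), macrophages and mast cells are all known sources of such ligands, and inflamed skin draws eosinophils, basophils and T cells in.

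The paired cysteines give their name to the family, so the coding sequence around them is shown for each member from 5′ to 3′, with the codons of the pair in capitals and 30 bases on either side. These stretches were read from the GRCm38 transcripts of GENCODE release M21. In Ccl24, which has 2 such pairs, the pair at codon 33 is shown.
Ccl7: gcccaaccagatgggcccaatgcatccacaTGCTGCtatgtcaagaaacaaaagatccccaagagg
Ccl8: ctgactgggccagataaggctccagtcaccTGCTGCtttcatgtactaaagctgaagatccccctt
Ccl12: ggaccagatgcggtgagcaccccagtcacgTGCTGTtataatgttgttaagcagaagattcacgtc
Ccl11: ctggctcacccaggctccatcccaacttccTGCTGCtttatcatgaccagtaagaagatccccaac
Ccl24: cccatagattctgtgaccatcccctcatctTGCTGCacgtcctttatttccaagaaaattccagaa
Ccl19: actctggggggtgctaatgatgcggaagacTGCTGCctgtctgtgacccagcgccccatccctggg
Ccl3: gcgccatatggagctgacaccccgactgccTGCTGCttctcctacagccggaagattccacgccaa
Ccl4: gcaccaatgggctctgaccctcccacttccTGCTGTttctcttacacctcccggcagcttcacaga
Ccl6: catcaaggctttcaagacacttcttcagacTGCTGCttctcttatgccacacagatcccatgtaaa
Ccl9: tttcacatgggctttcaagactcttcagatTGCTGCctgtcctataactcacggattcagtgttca

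In these stretches of 66 bases the closest relatives were Ccl3 and Ccl4, with 40 identical bases (60.6%), followed by Ccl8 and Ccl12 with 39 (59.1%). The bases of Ccl6 and Ccl9 were identical at 36 positions (54.5%). Most members lie on chromosome 11 in 2 groups (GRCm38 coordinates). Ccl7 (chr11:82045712-82047525), Ccl11 (chr11:82057823-82062955), Ccl12 (chr11:82101845-82103400) and Ccl8 (chr11:82115185-82116799) follow each other on the plus strand, just after Ccl2. Ccl9 (chr11:83572919-83578636), Ccl6 (chr11:83587882-83593087) and Ccl3 (chr11:83647844-83649355) lie on the minus strand, and Ccl4 (chr11:83662584-83664683) on the plus strand, farther along the same chromosome. Ccl24 (chr5:135569937-135573049) and Ccl19 (chr4:42754525-42756577) are apart from the others, both on the minus strand. The Ccl19 transcript has relatives on the same chromosome that share part of its sequence. Of its 895 stretches of 31 bases, 526 (58.8%) also occurred in Ccl19-ps1, Ccl19-ps3, Gm12407 or Gm2564, none of which has a row in the count matrices. Reads from these copies cannot be told apart from Ccl19 along the shared stretches, so the Ccl19 count is uncertain, and the part of the copies in it was not tested. A further locus annotated as Ccl19, on the scaffold JH584294.1 (102539-104139), is not among these copies. Whether it shares sequence with Ccl19 was not tested. Ccl3, Ccl4, Ccl7, Ccl8 and Ccl12 shared no stretch of that length with another gene, and Ccl6, Ccl9, Ccl11 and Ccl24 shared at most 3.75% of theirs.

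In all, 12598 barcodes with 125184653 UMIs were deposited for Ctrl and 8778 barcodes with 76106062 UMIs for AD. After the filter of the study's methods (200 to 6000 genes and at most 10% mitochondrial UMIs), 11399 Ctrl and 8179 AD cells remained, with medians of 7813 and 6330 UMIs, and 35 barcodes occurred in both libraries. Cells were put into classes by marker genes, with at least 3 markers of a class and 2 more than of any other. This placed 87.8% of Ctrl and 84.8% of AD cells and gave 6096 and 5053 fibroblasts, 407 and 212 macrophages, and 126 and 45 mast cells. The median fibroblast had UMIs of 10 of the 10 fibroblast markers in Ctrl and of 7 in AD, the median macrophage of 8 and 7 of its 10 markers, and the median mast cell of 8 of 10 in both. Near the cut of the gate, with exactly the required number or lead, lay 383 and 372 fibroblasts, 55 and 30 macrophages, and 4 and 1 mast cells. No member was a marker.

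The level of a ligand in a class is its CPM (counts per 1e+06), that is its UMIs from all cells of the class together, scaled by the total UMIs of these cells. Because 3′ libraries count transcript ends, CPM compares a gene between classes and not genes with each other. Ratios are given as folds of the CPM, and members are counted as 2-fold higher or lower on the log2 scale after adding 1 CPM, where both sides together had at least 20 UMIs.

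The 10 ligands fell into those held by fibroblasts and those held by myeloid cells. Fibroblasts held 86.7% of the Ccl7 UMIs of the Ctrl library and 93.1% of those of the AD library. They also held 96.7% and 94.2% of the Ccl11 UMIs, and 97.4% and 94.7% of the Ccl19 UMIs. Macrophages held 88.8% and 94.2% of the UMIs of Ccl12 and 86.2% and 91.9% of those of Ccl24, 2 ligands with few UMIs in all (188 and 173, 348 and 124). Ccl8 was split between both classes, with 25.5% of its UMIs in Ctrl and 41.6% in AD fibroblasts, and 68.5% and 54.1% in macrophages. Macrophages held 64.8% of the Ccl4, 72.0% of the Ccl6 and 59.3% of the Ccl9 UMIs of Ctrl, but 35.9% of those of Ccl3, of which ungated cells held 36.2%. In AD large shares of Ccl3, Ccl4 and Ccl6 lay in a small number of basophils.

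**Figure D1:**
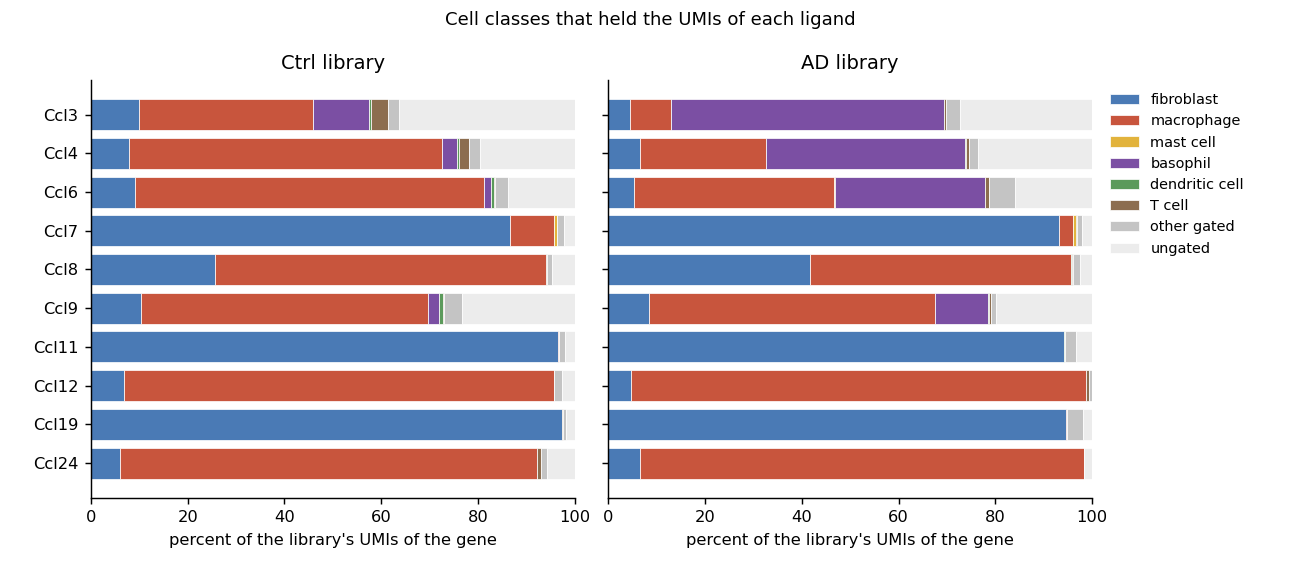
Each bar gives the percent of a ligand's UMIs (x axis) held by each gated class of cells in the Ctrl and AD libraries, all kept cells together being 100. Fibroblasts filled most of the bars of Ccl7, Ccl11 and Ccl19 in both libraries, macrophages those of Ccl12 and Ccl24, and basophils held 56.4% of the Ccl3 UMIs of AD.

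Set against macrophages on the CPM scale, fibroblasts were 2-fold higher in only 2 of the 10 members in either library, Ccl11 and Ccl19. They were 2-fold lower in 8 members in Ctrl and in 7 in AD. Of all genes with enough UMIs, 24.1% were 2-fold higher and 12.3% 2-fold lower in Ctrl fibroblasts than in Ctrl macrophages, and 26% and 13.7% in AD. The median log2 ratio of the members was -6.45 in Ctrl and -5.52 in AD, against 0.27 and 0.28 over all genes. Ccl7 was the member that crossed over: its CPM was 3.30-fold higher in macrophages in Ctrl and 1.40-fold higher in fibroblasts in AD.

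**Figure D2:**
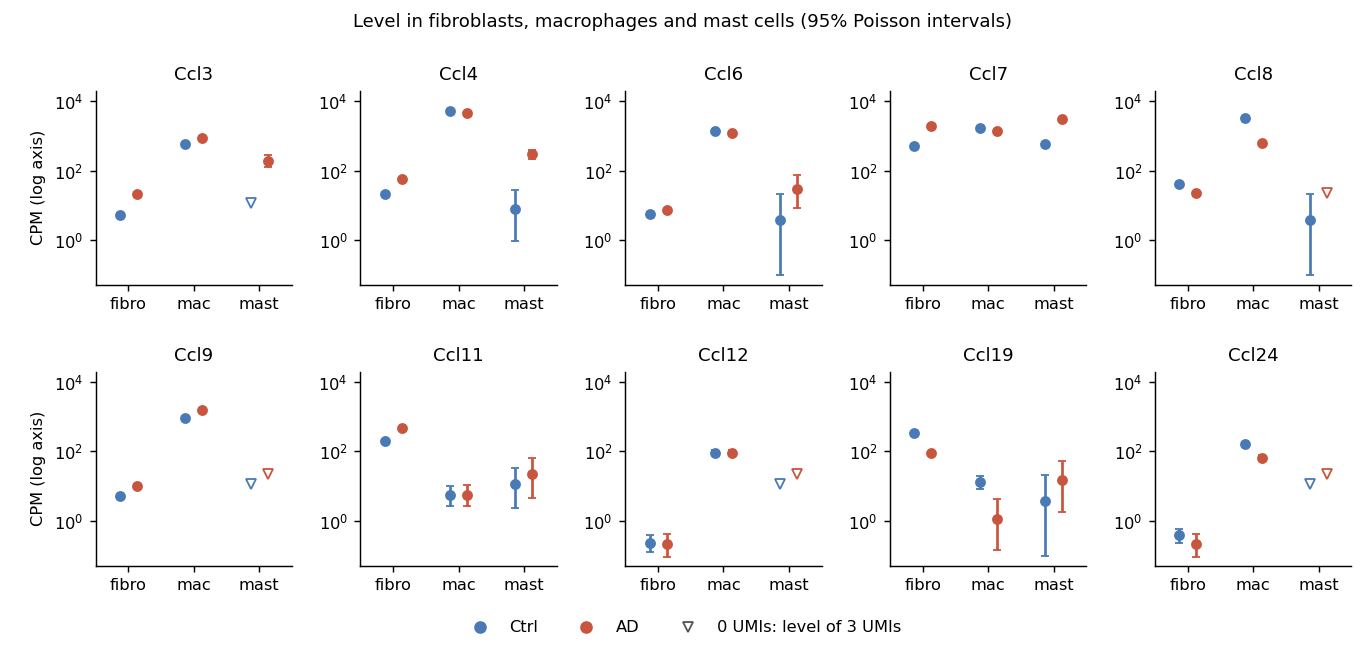
CPM of each ligand (log axis) in gated fibroblasts, macrophages and mast cells of the Ctrl (blue) and AD (red) libraries, with 95% Poisson intervals for counting error, and open triangles where a class had 0 UMIs, at the level of 3 UMIs. Ccl7 was the only ligand above 500 CPM in all 3 classes, whereas Ccl11 and Ccl19 stood above 90 CPM only in fibroblasts.

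Ccl7, a monocyte attractant also named MCP-3, had 29862 UMIs in Ctrl fibroblasts and 76470 in AD fibroblasts. Its level was 525 CPM (519 to 531) in Ctrl and 1964 CPM (1950 to 1978) in AD, 3.74-fold (3.69 to 3.79) higher in the AD library. A UMI of Ccl7 was seen in 48.1% of Ctrl and 69.1% of AD fibroblasts. After each cell had been thinned to 1000 UMIs, so that depth was equal, the shares were 22.2% (21.1 to 23.3) and 45.2% (43.8 to 46.6). T cells and keratinocytes served as classes in which such UMIs can come from free RNA. Their shares without thinning were 8.79% and 18.2% in T cells (median depths of 3225.5 UMIs in Ctrl and 5759.5 in AD) and 14.3% and 29.2% in keratinocytes (14336 and 9825 UMIs). Thinned, they were 2.95% and 3.20% in T cells and 0.96% and 2.54% in keratinocytes, well under those of fibroblasts. Keratinocytes were at 11.4 CPM and 35.6 CPM, and endothelial cells at 31.8 CPM and 169 CPM.

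In macrophages, Ccl7 was at 1734 CPM (1674 to 1796) in Ctrl and 1403 CPM (1348 to 1459) in AD, so that the AD library was 1.24-fold (1.17 to 1.30) lower. The macrophage ratio depended on which cells were counted. When every cell took the class of its joint cluster, which gave 873 Ctrl and 329 AD macrophages, the log2 ratio was 0.62 in place of -0.31, and the mean of per-cell CPM gave 0.06. Fibroblast genes that the gate did not use (Col3a1, Sparc, Col5a2, Serpinf1, Fstl1, Col6a2) stood in macrophages at a median of 2.52% (Ctrl) and 2.62% (AD) of their fibroblast level, whereas Ccl7 in macrophages was at 3.30 times and 0.714 times its fibroblast level. Ccl7 was also spread unevenly over them: 26 of the 407 Ctrl macrophages and 12 of the 212 AD macrophages held at least as many Ccl7 UMIs as all the others together.

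Mast cells were the class with the largest Ccl7 ratio of the 3, from 153 UMIs in 126 Ctrl cells to 420 UMIs in 45 AD cells. The level was 572 CPM (485 to 670) in Ctrl and 3091 CPM (2802 to 3401) in AD, 5.41-fold (4.48 to 6.55) higher in AD. In AD it was 1.57-fold (1.43 to 1.73) above fibroblasts and 2.20-fold (1.98 to 2.44) above macrophages, whereas in Ctrl it was 3.03-fold (2.58 to 3.59) below macrophages and the interval of its difference from fibroblasts included no difference (1.09-fold, 0.92 to 1.28). Thinned, 23.3% (15.5 to 32.7) of Ctrl and 60.0% (40.6 to 77.3) of AD mast cells had a UMI, over 103 and 30 cells, and without thinning 33.3% and 48.9%. In AD, 3 mast cells held at least as many Ccl7 UMIs as the others together, and the richest had 126. Fibroblast RNA in mast cells was measured with the same 6 genes, which stood at a median of 2.07% of their fibroblast level in Ctrl and 4.74% in AD, with a highest value of 9.37%. For Ccl7 itself the mast cell level was above the fibroblast level in AD, and in Ctrl the interval of the difference included none.

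Ccl8, in mice a ligand of CCR8 on T helper cells, was mainly a macrophage transcript and was lower in the AD library. Macrophages had 6053 UMIs in Ctrl and 1140 in AD, which is 3320 CPM (3237 to 3404) and 642 CPM (605 to 680), or 5.17-fold (4.86 to 5.52) lower in AD. By the class of the cluster the levels were 1297 CPM and 459 CPM, a log2 ratio of -1.50 in place of -2.37, and the mean of per-cell CPM gave -1.75. The thinned share of macrophages with a UMI was 53.4% (48.2 to 58.4) in Ctrl and 19.6% (14.3 to 25.8) in AD. Fibroblasts were far below, at 39.6 CPM and 22.5 CPM, with thinned shares of 3.83% and 2.24%. T cells, by comparison, had 1.38% and 0.49%, and endothelial cells 1.36% and 0.74%. Mast cells had 1 UMI of Ccl8 in Ctrl and 0 in AD, where 3 UMIs would be 22.1 CPM.

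Ccl12, a CCR2 ligand found in mice, and Ccl24, an eotaxin, were all but absent outside macrophages. Ccl12 stood at 91.6 CPM (78.2 to 107) in Ctrl macrophages and 91.8 CPM (78.2 to 107) in AD, a ratio of 1.00 (0.80 to 1.25). By the class of the cluster it was at 35.3 CPM and 65.1 CPM, a log2 ratio of 0.87. In AD, however, 2 of 212 macrophages held at least as many of its 163 UMIs as the others together. Ccl24 was at 165 CPM (146 to 184) in Ctrl and 64.2 CPM (52.9 to 77.1) in AD macrophages, 2.56-fold (2.06 to 3.21) lower, and there too 2 AD cells held at least as many of the 114 UMIs as the others. By the class of the cluster Ccl24 was at 66.0 CPM and 46.8 CPM, and the log2 ratio of -0.49 was no longer past 2-fold, whereas thinning gave -2.05. The thinned share with a UMI was 15.2% in Ctrl and 2.51% in AD. In fibroblasts both genes were under 0.4 CPM, and mast cells and basophils had 0 UMIs of either in both libraries, where 3 UMIs would be 11.2 CPM and 22.1 CPM in mast cells and 249.9 CPM and 14.9 CPM in basophils.

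Ccl11, the eotaxin of fibroblasts, was at 204 CPM (200.0 to 207) in Ctrl fibroblasts and 462 CPM (455 to 469) in AD fibroblasts, 2.27-fold (2.21 to 2.32) higher in the AD library. The share of fibroblasts with a UMI was 48.6% and 57.1%, and 16.7% (15.7 to 17.6) and 26.4% (25.2 to 27.7) after thinning. Fibroblasts were 37.1-fold (20.2 to 77.5) above macrophages in Ctrl and 82.0-fold (44.6 to 171) in AD. In macrophages it was at 5.48 CPM and 5.63 CPM, each from 10 UMIs, and thinned shares were 0.79% and 0.99% in T cells. Outside fibroblasts the highest level was that of pericytes or vascular smooth muscle cells in AD, at 168 CPM against 13.9 CPM in Ctrl (202 and 14 UMIs). By the class of the cluster these cells were at 283 CPM in AD and 71.6 CPM in Ctrl (439 and 96 UMIs).

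Ccl19, the CCR7 ligand that marks stromal cells of lymphoid tissue, was the only member that was 2-fold lower in AD fibroblasts. It had 19147 UMIs in Ctrl and 3558 in AD fibroblasts, or 336 CPM (332 to 341) and 91.4 CPM (88.4 to 94.4), 3.68-fold (3.55 to 3.82) lower. Thinned, 19.9% (18.9 to 20.9) of Ctrl and 5.64% (5.01 to 6.32) of AD fibroblasts had a UMI, and without thinning 46.7% and 19.5%. The log2 ratio of -1.87 became -2.47 from thinned cells and -2.63 as the mean of per-cell CPM. Of thinned T cells and keratinocytes in Ctrl, 0.98% and 0.30% had one. Endothelial cells went the other way at lower levels, from 13.2 CPM to 27.5 CPM. In AD macrophages and mast cells 2 UMIs each were seen.

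Over the members as a whole, AD fibroblasts were 2-fold higher than Ctrl fibroblasts in 4 of 10 (Ccl3, Ccl4, Ccl7, Ccl11), where 5.44% of 16688 genes were, and 2-fold lower in 1 (Ccl19), where 13.2% of genes were. The median log2 ratio was 0.56 over the members and -0.14 over all genes. In macrophages 0 members were 2-fold higher, where 6.51% of genes were, and 3 were lower (Ccl8, Ccl19, Ccl24), where 10.8% of genes were, the Ccl19 call resting on 23 and 2 UMIs. The median was -0.18 against -0.07. In mast cells only Ccl3, Ccl4 and Ccl7 had enough UMIs, and all 3 were higher (8.19% of genes were higher and 12.6% lower), but of the 26 AD UMIs of Ccl3 and the 40 of Ccl4, 23 and 36 came from 1 cell each. With 0 UMIs in Ctrl mast cells, Ccl3 had no plain ratio. It would be 17.1-fold higher with 3 UMIs put in place of 0, and its counting interval began at 12.9-fold.

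**Figure D3:**
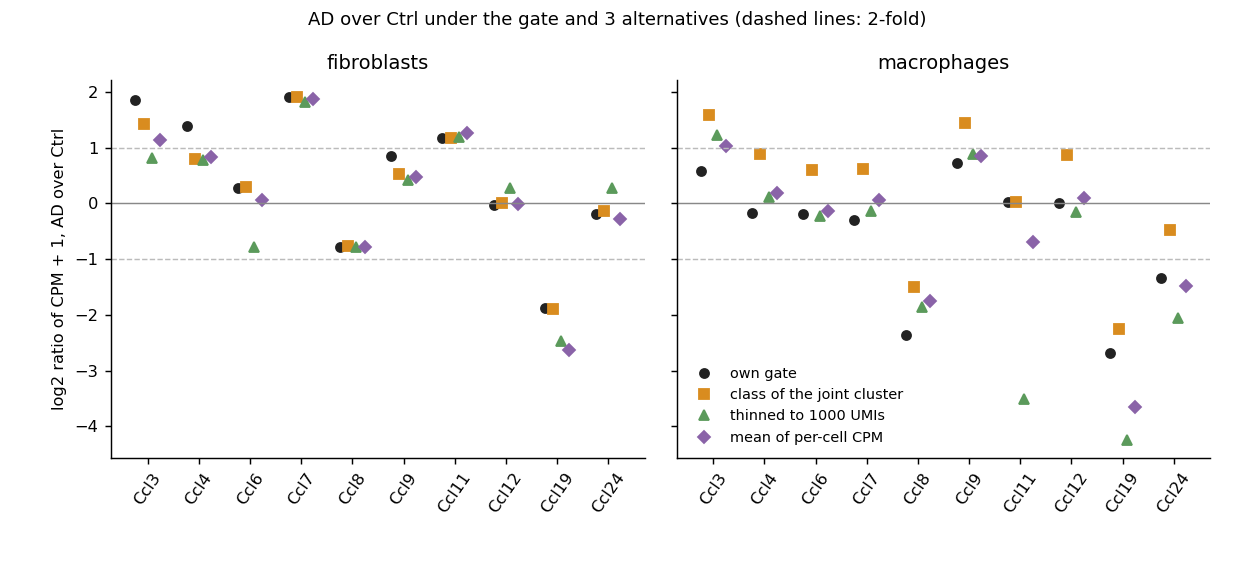
Log2 ratio of CPM + 1, AD over Ctrl, of each ligand in fibroblasts (left) and macrophages (right), by each cell's own gate (circles), by the class of its joint cluster (squares), after thinning to 1000 UMIs (triangles) and as the mean of per-cell CPM (diamonds). In fibroblasts Ccl7 and Ccl11 lay above the 2-fold line and Ccl19 below it in all 4, whereas in macrophages Ccl4, Ccl6 and Ccl7 were below 0 by gate and above 0 by cluster.

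The calls of Ccl3 and Ccl4 in fibroblasts rested on few cells. Ccl3 was at 5.27 CPM (Ctrl) and 21.5 CPM (AD) in fibroblasts, and 3 of 5053 AD fibroblasts held at least as many of its 839 UMIs as the others together. Ccl4 was at 20.6 CPM and 55.5 CPM, where 4 AD cells did so. Gated fibroblasts that lay in clusters of another class made up 5.23% of the Ctrl and 2.83% of the AD fibroblasts, and held 64.7% and 69.2% of the Ccl3 UMIs and 48.8% and 66.1% of the Ccl4 UMIs of fibroblasts. The same cells held 3.99% and 2.31% of the Ccl7 UMIs. Without them Ccl3 was at 1.98 CPM and 6.90 CPM and Ccl4 at 11.2 CPM and 19.6 CPM. Thinned shares of fibroblasts with a UMI of Ccl4 (1.75% and 2.30%) were near those of keratinocytes (0.96% and 3.11%) and under those of T cells (6.48% and 3.94%). Ccl6 (5.61 CPM and 7.01 CPM) and Ccl9 (5.22 CPM and 10.1 CPM) were as low in fibroblasts, with thinned shares under 1%. With levels this near those of other classes, no statement on expression by fibroblasts is drawn for these 4 genes.

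Ccl3, Ccl4, Ccl6 and Ccl9 were myeloid. Macrophages had 5341 CPM of Ccl4 (MIP-1β) in Ctrl and 4761 CPM in AD, 1371 CPM and 1199 CPM of Ccl6, 590 CPM and 877 CPM of Ccl3 (MIP-1α), and 944 CPM and 1551 CPM of Ccl9. By gate the AD library was 1.12-fold (1.09 to 1.16) lower in Ccl4 and 1.14-fold (1.08 to 1.21) lower in Ccl6, and 1.49-fold (1.38 to 1.61) higher in Ccl3 and 1.64-fold (1.55 to 1.75) higher in Ccl9. By cluster all 4 were higher in AD, with log2 ratios of 0.89, 0.60, 1.58 and 1.44, so the direction of Ccl4 and Ccl6 hung on how macrophages were defined. Thinned Ctrl macrophages had a UMI of Ccl4 in 56.4%, of Ccl6 in 52.6%, of Ccl9 in 51.3% and of Ccl3 in 24.2% of cells, and in AD the shares were 58.3%, 42.2%, 61.8% and 40.2%.

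Basophils, granulocytes that take part in allergic inflammation, were few (5 gated cells in Ctrl and 37 in AD) but carried Ccl3 and Ccl4 at levels no other class reached. In AD they were at 52177 CPM of Ccl3 (10507 UMIs) and 66876 CPM of Ccl4 (13467 UMIs), 59.5-fold (56.4 to 62.8) and 14.0-fold (13.7 to 14.4) above AD macrophages. All 37 cells had UMIs of both. They held 56.4% of the Ccl3, 41.2% of the Ccl4, 31.1% of the Ccl6 and 10.8% of the Ccl9 UMIs of the library. The 5 Ctrl basophils were at 28990 CPM and 38904 CPM, from 348 and 467 UMIs. By cluster there were 13 Ctrl and 63 AD basophils, and these held 36.5% and 82.5% of the Ccl3 UMIs. Ungated cells held 36.2% of the Ccl3 UMIs in Ctrl and 27.4% in AD. Of the basophils by cluster, 8 Ctrl and 21 AD cells were ungated. Basophils by cluster had 1093 and 15378 Ccl3 UMIs, against 348 and 10507 by gate. The ungated share can therefore not be read as lying outside basophils. Ccl7, by contrast, was at 44.7 CPM in AD basophils, 9 UMIs in 9 cells, with 0 UMIs in Ctrl. By cluster it was higher in AD basophils, at 280 CPM (104 UMIs), with 1 UMI in Ctrl. Neutrophils (5 and 47 cells) had Ccl6 at 2339 CPM (18 UMIs) and 1125 CPM (190 UMIs), and Ccl3 at 520 CPM (4 UMIs) and 894 CPM (151 UMIs). The Ctrl values of both classes rest on 5 cells each.

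**Figure D4:**
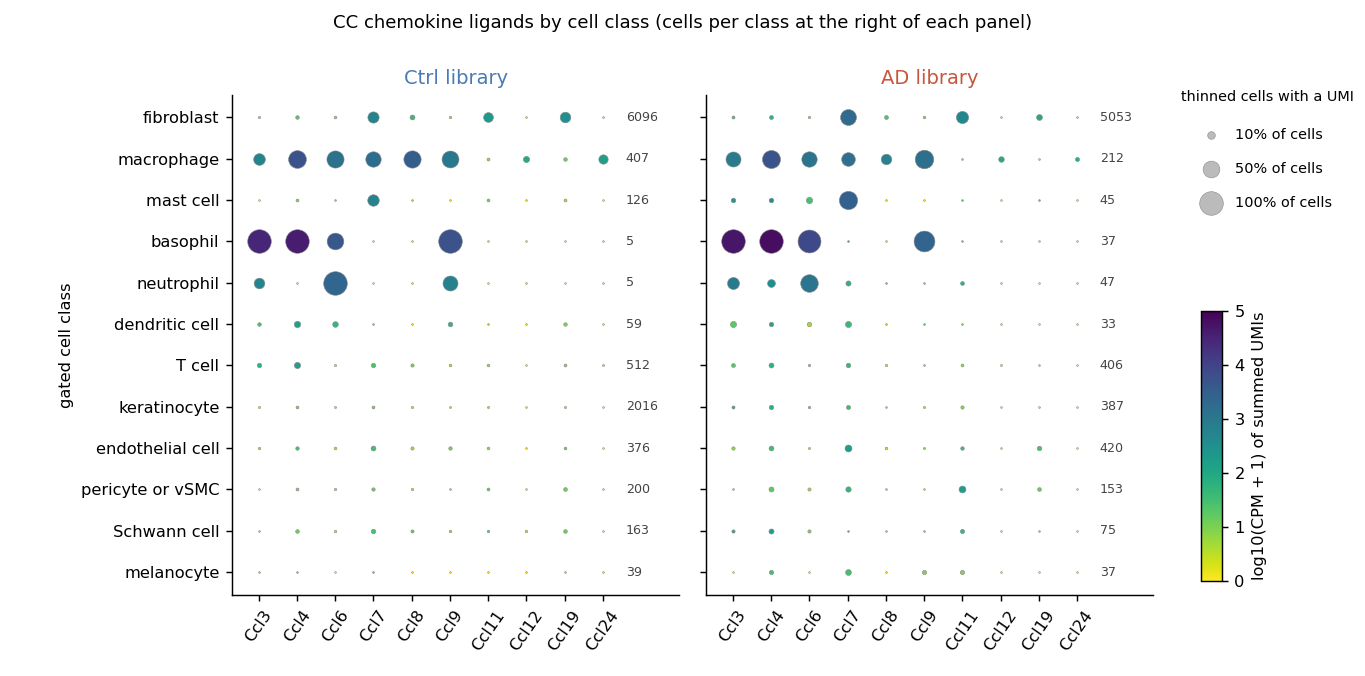
Dot plot of the 10 ligands (x axis) over 12 gated classes (y axis) in the Ctrl and AD libraries, in which colour is log10(CPM + 1) of summed UMIs, dot size is the percent of thinned cells with a UMI, and the numbers at the right are cells per class. The darkest dots are Ccl3 and Ccl4 in basophils, Ccl11 and Ccl19 are large only in the fibroblast row, and Ccl7 is large in the fibroblast, macrophage and mast cell rows.

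Fibroblasts differed among themselves. They were sorted by the marker list that led in each cell, with at least 2 of its markers. These lists were the Dpp4, Pi16, Sema3c, Anxa3, Cd55 and Limch1 list of interstitial cells, the Fmo2, F3, Gdf10 and Mgp list, the Prdm1, Trps1, Apcdd1, Nkd2 and Col23a1 list of upper dermis and follicle, the Grem1, Cyp26b1, Cyp4b1, Lpl and Pparg list and the Acta2, Lrrc15 and Col11a1 list. The make-up differed between the libraries, with the Dpp4 list leading in 52.2% of Ctrl and 26.1% of AD fibroblasts, the Fmo2 list in 1.59% and 16.3%, the Prdm1 list in 16.2% and 8.49%, the Grem1 list in 3.85% and 14.6%, and no list in 22.0% and 34.3%. The Acta2 list led in 3.90% of Ctrl fibroblasts and was left out of the comparison because too few AD cells had it. A Wif1, Hhip and Rspo3 list of follicle mesenchyme was also used. It led in 12 Ctrl and 6 AD fibroblasts and was left out too.

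Ccl7 and Ccl11 were higher in AD within each of the 4 remaining lists, and Ccl19 was lower in each. Ccl7 went from 775 CPM to 2218 CPM where the Dpp4 list led, from 413 CPM to 2034 CPM with the Fmo2 list, from 94.5 CPM to 627 CPM with the Prdm1 list and from 429 CPM to 2221 CPM with the Grem1 list. Cells led by the Prdm1 list were thus lowest in both libraries among the 4. Ccl11 showed the same order at the bottom, from 47.9 CPM to 124 CPM with the Prdm1 list, against 276 CPM to 492 CPM with the Dpp4 list, 401 CPM to 605 CPM with the Fmo2 list and 190 CPM to 407 CPM with the Grem1 list. Ccl19 was highest with the Grem1 list in both libraries (902 CPM in Ctrl and 171 CPM in AD). Its largest ratio was with the Dpp4 list, from 295 CPM to 27.9 CPM, and its smallest with the Fmo2 list, from 106 CPM to 70.6 CPM. Ccl8 was lower in AD with the Grem1 list (log2 ratio -1.15, interval -1.58 to -0.79), the Dpp4 list (47.8 CPM and 22.7 CPM, -1.04) and the Prdm1 list (15.8 CPM and 10.9 CPM, -0.49, interval -1.07 to -0.02). With the Fmo2 list it was at 30.4 CPM and 30.5 CPM (0.01, -0.68 to 0.77).

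**Figure D5:**
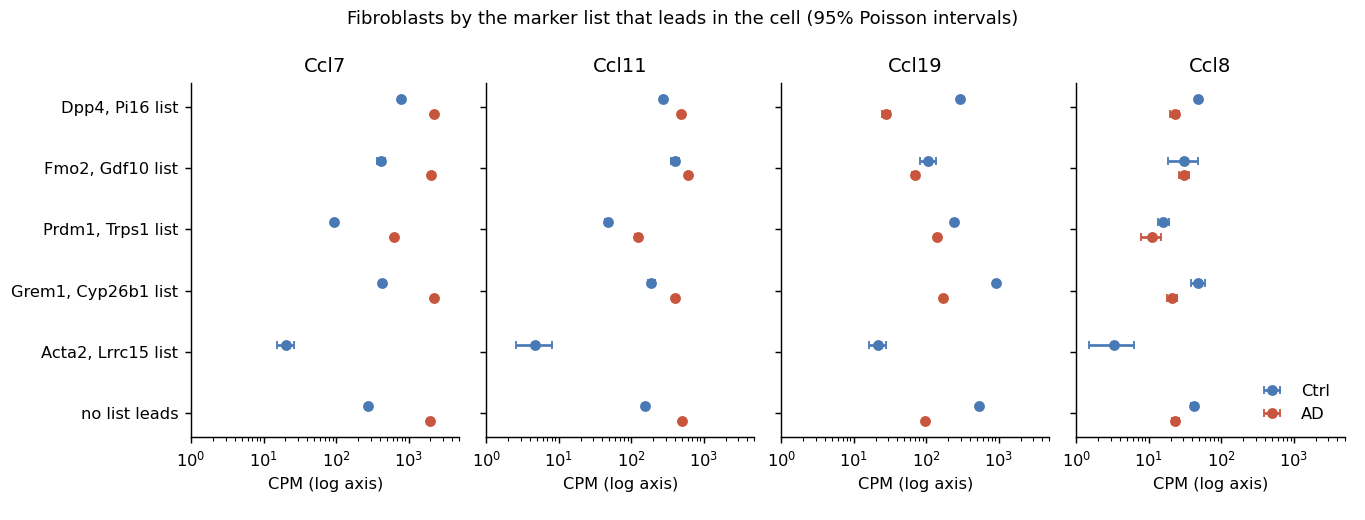
CPM (log axis) of Ccl7, Ccl11, Ccl19 and Ccl8 in fibroblasts of the Ctrl (blue) and AD (red) libraries, by the marker list that led in the cell, with 95% Poisson intervals. For Ccl7 and Ccl11 the AD points lie to the right of the Ctrl points in every list that has both, and for Ccl19 to the left.

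The fibroblasts of both libraries seldom fell into the same joint clusters. Only 4 clusters held at least 20 gated fibroblasts of each library, with 215 Ctrl and 1344 AD fibroblasts between them, and 2 of these 4 were the main clusters of macrophages and T cells. Even so the libraries were spread differently over the 4, since 1 cluster held 1194 of the 1344 AD but 34 of the 215 Ctrl fibroblasts. Within these cells Ccl7 had a log2 ratio (AD over Ctrl) of 2.52 (293 CPM and 1681 CPM), Ccl11 of 2.81 (68.5 CPM and 487 CPM) and Ccl19 of -3.39 (266 CPM and 24.5 CPM). Ccl3 and Ccl4 turned, with log2 ratios of -0.40 and -0.78, and so did Ccl8, with 0.56 in place of -0.79. Ccl6 and Ccl9 turned too. Ccl6 was at 74.9 CPM (Ctrl) and 7.88 CPM (AD), against 5.61 CPM and 7.01 CPM over all gated fibroblasts. Ccl9 was at 84.7 CPM and 27.7 CPM, against 5.22 CPM and 10.1 CPM. Ccl12 had 0 and 4 UMIs here. Which part of the remaining separation is the treatment and which the library cannot be told apart.

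Macrophages were divided by a list of tissue-resident markers (Lyve1, Folr2, Cd163, Cbr2, Timd4). Of the 407 Ctrl macrophages 266 had at least 2 of these markers, and of the 212 AD macrophages 55 had, while 71 and 109 had none. Ccl7 was higher in cells with such markers, at 2114 CPM (Ctrl) and 3231 CPM (AD), than in cells with none, at 493 CPM and 362 CPM. The AD library was higher within the marked cells (log2 ratio 0.61, 0.52 to 0.71) and lower in cells with none (-0.44, -0.74 to -0.14). Ccl8 was lower in AD in both, from 4251 CPM to 1967 CPM in marked cells and from 606 CPM to 117 CPM in cells with none. Ccl24 was lower in marked cells (211 CPM and 66.2 CPM) and higher in cells with none (42.7 CPM and 87.2 CPM), the latter from 11 Ctrl and 84 AD UMIs seen in 7.04% and 9.17% of these cells, in a library where 2 macrophages held at least as many Ccl24 UMIs as the others together. Ccl9 was higher in AD in both, with log2 ratios of 1.22 and 0.83, and so was Ccl6, with 0.40 and 0.35. Ccl3 was higher in marked cells (0.82, 0.64 to 1.00) and lower in cells with none (-0.38, -0.62 to -0.13). Ccl4 likewise had log2 ratios of 0.32 in marked cells and -0.56 in cells with none. Cells with none were unlike between the libraries, with median depths of 3252 (Ctrl) and 7745 UMIs (AD). MHC class II genes (H2-Aa, H2-Ab1, H2-Eb1, Cd74) made up a median of 3.06% and 0.07% of their UMIs. By the class II share within each library, the log2 ratio of Ccl7 was 1.11 in the lowest 136 Ctrl and 71 AD macrophages. It was -0.24 in the middle 136 and 71 and -2.38 in the highest 135 and 70. Ccl3 had 2.19, 1.07 and -1.23, and Ccl4 1.23, 0.27 and -1.57.

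Ligands were also compared cell by cell, after thinning to 1000 UMIs. In Ctrl 52.3% and in AD 38.3% of fibroblasts had no UMI of any member, whereas 64.2% and 50.3% of macrophages had UMIs of 3 or more members. Among fibroblasts with Ccl7, 37.5% in Ctrl and 57.3% in AD also had a UMI of Ccl2, its neighbour on the chromosome. Of the fibroblasts without Ccl7, 9.30% and 23.2% had one. Fibroblasts with Ccl11 also had Ccl2 more often, in 26.5% (Ctrl) and 50.1% (AD), against 13.4% and 34.5% of those without. Ccl19 did not go with Ccl2 in this way: 12.7% in Ctrl and 34.7% in AD of fibroblasts with Ccl19 had Ccl2, against 16.3% and 38.9% of those without. Among macrophages with Ccl3, 94.7% in Ctrl and 81.3% in AD had Ccl4, against 44.2% and 42.9% of those without Ccl3. Cells of a class share a library, so these shares are descriptions.

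Over the 23 combinations of class and library with at least 30 cells, the genes whose level was most like that of Ccl7 included Ccl2 (Pearson r of 0.95 over log2 of CPM + 1) and Plau (0.86), among 5620 genes with at least 100 CPM in a combination. For Ccl11 they were Tnfaip6 (0.90), Mmp11 (0.87) and Ctsk (0.87), and for Ccl19 Rian (0.89), Serpinf1 (0.86) and Itgbl1 (0.85). For the macrophage ligands they were Trem2 (0.97), Ccl24 (0.96) and Fcna (0.95) for Ccl12, Trem2 (0.98), Cd209b (0.97) and Folr2 (0.96) for Ccl24, and Csf1r (0.89), C1qa (0.88) and Ccl24 (0.88) for Ccl8. Ccl3 and Ccl4 were each other's nearest (0.94). Next to Ccl3 came Ccl6 (0.89) and Ccr1 (0.87), and next to Ccl4 Ccl6 (0.90) and Mapkapk2 (0.88). For Ccl6 the nearest were Itgam (0.93), C5ar1 (0.91) and Ccl4 (0.90), and for Ccl9 Adgre1 (0.90), C3ar1 (0.85) and Ccl4 (0.85). The combinations share libraries and some have few cells, so no test was made. Csf1r, C1qa and Adgre1 are markers that the macrophage gate used. Their likeness to ligands of macrophages is thus partly built in, and no conclusion is drawn from it.

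Ccl8 and Ccl12 are neighbours that macrophages held in both libraries, and whose gated AD levels were 5.17-fold lower for Ccl8 and 1.00-fold for Ccl12 (log2 ratios of -1.50 and 0.87 by cluster), so the 250 bases before their starts are shown (RefSeq, GRCm38.p6, plus strand, 5′ to 3′), chr11:82114935-82115184 for Ccl8 and chr11:82101595-82101844 for Ccl12, with the TATA box letters TATAAA in capitals.
Ccl8: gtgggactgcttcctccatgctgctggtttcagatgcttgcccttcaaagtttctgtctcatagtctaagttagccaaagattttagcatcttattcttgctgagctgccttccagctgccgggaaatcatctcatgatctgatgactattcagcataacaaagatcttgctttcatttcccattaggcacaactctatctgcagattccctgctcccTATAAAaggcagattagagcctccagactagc
Ccl12: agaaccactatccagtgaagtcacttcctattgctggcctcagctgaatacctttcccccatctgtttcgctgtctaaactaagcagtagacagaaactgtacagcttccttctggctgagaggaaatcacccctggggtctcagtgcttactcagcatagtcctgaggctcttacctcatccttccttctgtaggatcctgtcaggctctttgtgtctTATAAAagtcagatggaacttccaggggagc
The box began 32 bases before the start of Ccl8 and 31 bases before that of Ccl12, and 12.4% of 32851 promoter windows of this length held these letters on either strand. Promoter sequences were found for 6 of the 10 members (Ccl3, Ccl6, Ccl8, Ccl9, Ccl12 and Ccl19). None of the 6 held the STAT6 letters TTCNNNNGAA (5.85% of all windows), the STAT letters TTCNNNGAA (7.02%) or the C/EBP letters TTGCNNAA (9.56%). The AP-1 letters TGANTCA (6.75%) were found before Ccl9, and the NF-kB letters GGGNNNNNCC (45.8%) before Ccl9 and Ccl19. A match or its absence describes these letters in these windows and nothing more.

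The other genes of the system were taken from fixed lists. Of 14 other CC ligands 13 have rows in the matrices, and 9 had enough UMIs in fibroblasts, of which 1 was 2-fold higher and 2 were 2-fold lower in AD (5.44% and 13.2% of all genes). In macrophages 7 had enough, with 3 higher and 0 lower (6.51% and 10.8% of all genes), and in mast cells 1, which was neither. Ccl2, at 471 CPM (Ctrl) and 1829 CPM (AD) in fibroblasts, 1163 CPM and 1631 CPM in macrophages and 758 CPM and 957 CPM in mast cells, was like Ccl7 in being present in all 3 classes. Ccl5, a T cell attractant, was at 229 CPM and 265 CPM in macrophages. Of the 14 receptors and decoy receptors, 10 had enough UMIs in fibroblasts (2 higher, 2 lower, against the same 5.44% and 13.2%), all under 100 CPM, and 5 in macrophages (3 higher, 2 lower, against 6.51% and 10.8%). In macrophages Ccr1, a receptor of CCL3, CCL6, CCL7 and CCL9, went from 46.1 CPM to 217 CPM and Ccrl2, a chemerin-binding decoy, from 233 CPM to 787 CPM, while Ccr2, the receptor of CCL7 and CCL12, went from 231 CPM to 105 CPM. In mast cells Ccrl2 was at 89.7 CPM (Ctrl) and 221 CPM (AD).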

How the data were processed

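Dorsal skin of 1 Ctrl and 1 AD library was profiled by 10x 3′ single-cell RNA-seq. The authors deposited raw counts: each value is the number of UMIs of 1 gene in 1 barcode, counted by Cell Ranger against mm10 without normalization. The file headers name Cell Ranger 5.0.0 and the submitters' processing notes Cell Ranger 3.1.0 and Seurat 5.0, whereas the methods name other versions. The deposited matrices hold called cells before the filter of the methods, which was applied here (200 to 6000 genes, at most 10% UMIs of 13 mitochondrial genes).

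Cells were gated by marker lists over 15 classes, with at least 3 markers of a class and a lead of 2. Mast cells and basophils share markers and were split by the larger share of their own list. The scoring rule of the gate was set after the files had been seen, and the members and lists were chosen with earlier results of these data known. Cells were not freed of doublets, because Scrublet called 395 cells in Ctrl and 0 in AD. Joint Leiden clusters (resolution 1, 2000 variable genes without 37 Ccl and Cxcl genes, 30 components, 20 neighbours) took the class of most of their gated cells. UMIs were summed per class and scaled to CPM. Sums carry exact Poisson intervals, shares of cells Clopper-Pearson intervals, and ratios, taken without the added 1 CPM, exact conditional binomial intervals, all at 95%. Molecules of 1 cell are not independent samples of a condition, so the intervals cover counting error only. A count of 0 was given the floor of 3 UMIs. Shares of cells were also taken after 1 random draw of 1000 UMIs per cell, with shallower cells left out (this kept 5986 Ctrl fibroblasts and 4915 AD fibroblasts). Scripts were checked on simulated data.

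Named are the 10 members, all other CC ligands and receptors with at least 100 CPM in fibroblasts, macrophages or mast cells, and the 3 genes nearest to each member by Pearson correlation, except 2 genes that are not reported here. Gene positions come from GENCODE release M21 (32475 of 33904 identifiers matched) and promoters from RefSeq. Clustering used scanpy 1.11.5 with leidenalg 0.10.2, scikit-learn 1.9.0 and anndata 0.12.19, statistics used scipy 1.17.1, tables used pandas 2.3.3 and numpy 2.4.6, and plots used matplotlib 3.10.9, all under Python 3.11.15. Alternatives changed the cell filter, the gate, the level, the scaling, the added CPM, the fold and the minimum of UMIs. Other experiments of the study, in other models or with its inhibitor, were not analysed here.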

Additional observations from a re-analysis of the deposited data

Results flagged for a closer look

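Ccl7 was flagged because its ratio of AD over Ctrl went in opposite directions in fibroblasts and macrophages. The log2 ratio was 1.90 in fibroblasts and -0.31 in macrophages, a difference of 2.21. Each direction rests on 1 library per group, and the difference was not tested. The macrophage side was not stable: it was 0.62 when cells took the class of their joint cluster and 0.06 as the mean of per-cell CPM. Among macrophages with at least 2 resident-like markers it was 0.61, and among those with none it was -0.44. From the lowest to the highest MHC class II share it was 1.11, -0.24 and -2.38. The fibroblast side was between 1.82 and 2.52 under every alternative run.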

How the results depend on the processing

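The ratios of fibroblasts over macrophages past 2-fold kept their sign in all 110 alternative values in Ctrl and all 99 in AD, and only Ccl7 in AD, under 2-fold, changed sign (-0.10 as the mean of per-cell CPM). Of the values of AD over Ctrl past 2-fold in fibroblasts, 53 kept their sign and 2 turned. Both turned in fibroblasts of clusters shared by the libraries, an alternative chosen after seeing the data, with log2 ratios of -0.40 for Ccl3 and -0.78 for Ccl4. In those cells 2 members were 2-fold higher and 3 were lower in AD fibroblasts, in place of 4 and 1. Thinning to 1000 UMIs left 2 members higher in AD fibroblasts, 1 in macrophages (in place of 0) and 1 in mast cells (in place of 3). A threshold of 1.5-fold gave 2 lower in fibroblasts and 1 higher in macrophages. By the class of the cluster 2 members were higher in AD macrophages, and by the mean of per-cell CPM 1. Without a minimum of UMIs 5 members were higher and 1 was lower in mast cells. The cause of these differences was not tested. Under 2-fold, 13 of 70 macrophage values and 11 of 55 fibroblast values changed sign. Of the counts of members under alternatives 115 stayed within 1.5 times the value reported and 11 did not. Single values moved more: beside the 2 that turned, 226 log2 ratios moved past their counting interval and 232 did not, as did 132 shares of UMIs against 148.

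Leaving out doublet calls was not run, since Scrublet called 0 cells in AD, and the 5% of cells with the highest scores were left out in its place. The level, scaling and added CPM do not apply to shares of UMIs. No paired analysis was possible because each group is 1 library. Depth limits Ccl12 and Ccl24 outside macrophages (8 to 21 UMIs per library in fibroblasts) and most members in mast cells, where Ccl3 and Ccl4 passed 2-fold on 26 and 40 UMIs in AD against 0 and 2 in Ctrl.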
